A study of Mus musculus with 4 samples.

Results

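Interferon-responding cells were a small population among freshly sorted blood stem cells of the mouse bone marrow, found by single-cell RNA sequencing. A cell was counted as interferon-responding when it held at least 1 unique molecular identifier (UMI, the tag that counts 1 captured RNA molecule) of 3 or more of 8 interferon-stimulated genes: Cxcl10, Ifit1, Ifit3, Ifit3b, Isg15, Gbp4, Gbp6 and Iigp1. Of 5579 cells that passed the filter of 1000 genes, 2000 UMIs and at most 10% mitochondrial UMIs, 348 met this rule (6.24%). The cells were thus chosen by the measured UMIs of these 8 genes, whose levels are given as a description.

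The cells came from 2 male mice, aged 14 weeks, of the cross Tie2-bG-Micm x RosaYFP, in which an inducible Cre is driven by Tie2, a gene of endothelial and blood-forming cells, and a yellow fluorescent reporter sits at the Rosa locus. The labels name no interferon, infection or other stimulus. Each mouse gave 1 library of long-term stem cells (LT-HSC, sorted as Lin- Kit+ Sca1+ CD150+ CD48-) and 1 library of short-term stem cells (ST-HSC, sorted as Lin- Kit+ Sca1+ CD150- CD48-). In each library, interferon-responding cells were set against reference cells that held 0 UMIs of all 8 genes, up to 5 per responding cell and matched for UMI total. In LT-HSC mouse 2 all 477 such cells were used, so depth was not matched there. Here 346 interferon-responding cells and 1632 reference cells of 3 libraries entered the tests, and the order LT-HSC mouse 2, ST-HSC mouse 1, ST-HSC mouse 2 is kept wherever 3 values are given.

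Interferons are secreted warning signals. Type I interferons act through the receptor chains Ifnar1 and Ifnar2 and a complex that holds Stat2 and Irf9 and binds a DNA element called ISRE, whereas interferon gamma acts through Ifngr1 and Ifngr2 and, in the nucleus, through a shorter element called GAS. The genes switched on encode antiviral effectors, cell-autonomous GTPases, antigen presentation proteins and feedback inhibitors, and interferons are known to push resting blood stem cells into cycle for a time.

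Promoter sequence of genes from this response is shown because the ISRE core (GAAA, any 2 bases, then GAAA, on either strand) was found in 5 of the 5 rule genes that have a promoter in the RefSeq table (GRCm38.p6, 250 bases before to 50 after the start). It was found in 3.99% of the 27025 genes with a promoter in that table. Each stretch below is written along the gene's own strand, and capitals mark the core; overlapping cores run together.
Cxcl10 (chr5:92349067-92349114, minus strand): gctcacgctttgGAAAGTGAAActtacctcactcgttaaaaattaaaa
Ifit1 (chr19:34640773-34640825, plus strand): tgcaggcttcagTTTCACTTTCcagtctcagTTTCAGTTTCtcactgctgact
Ifit3 (chr19:34583361-34583428, plus strand): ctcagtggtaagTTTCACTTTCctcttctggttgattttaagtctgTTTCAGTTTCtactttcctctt
Isg15 (chr4:156200861-156200908, minus strand): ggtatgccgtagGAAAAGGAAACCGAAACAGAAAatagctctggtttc
Gbp2 (chr3:142620592-142620639, plus strand): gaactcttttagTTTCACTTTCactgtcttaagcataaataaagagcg
Igtp (chr11:58199496-58199543, plus strand): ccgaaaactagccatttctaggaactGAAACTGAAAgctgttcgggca
Rsad2 (chr12:26456537-26456584, minus strand): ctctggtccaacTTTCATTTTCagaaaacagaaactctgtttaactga

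The core began 213 bases before the start in Cxcl10, 104 and 85 before it in Ifit1, 156 and 122 in Ifit3, 78, 72 and 66 in Isg15, 59 in Gbp2, 34 in Igtp and 120 in Rsad2. The window of Ifit3b (chr19:34607757-34607824) holds the same letters as that of Ifit3. A match in these windows is a description of the letters and not of a bound site.

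The LT-HSC library of mouse 1 stood apart: 22 of its 39553 barcodes passed the filter, so its 2 interferon-responding cells entered the shares but no test. The other libraries kept 1217, 2633 and 1707 cells with medians of 10367, 9881 and 7504 UMIs. At most 1 kept barcode was shared between any pair of libraries. The 3 tested libraries come from 2 mice, since LT-HSC mouse 2 and ST-HSC mouse 2 share an animal. The p-values rest on the scatter of these few sums, moderated over all genes. A called gene can therefore still go the other way in a library.

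Interferon-responding cells made up 115 of 1217 cells in LT-HSC mouse 2 (9.45%, exact 95% interval 7.86 to 11.2%), 165 of 2633 in ST-HSC mouse 1 (6.27%, 5.37 to 7.26%) and 66 of 1707 in ST-HSC mouse 2 (3.87%, 3.003 to 4.89%). In LT-HSC mouse 1 they made up 2 of 22 cells (9.09%, 1.12 to 29.2%). These Clopper-Pearson intervals cover counting error only, and those of the 3 deep libraries did not overlap. Because a deeper cell has more chances to show a UMI, cells were also thinned to 5000 UMIs, which left out 71, 69 and 117 shallower cells. Before thinning, the deeper cells that stayed had shares of 10.03%, 6.40% and 3.90%. After it the share came to 3.93% in LT-HSC mouse 2 (2.88 to 5.22%), 2.54% in ST-HSC mouse 1 (1.96 to 3.22%) and 2.52% in ST-HSC mouse 2 (1.80 to 3.41%), and the intervals overlapped. With 2 libraries per gate, a difference between gates could not pass an exact test. Cells with 1 or 2 of the 8 genes were common in every library, as the plot of cells by number of genes shows.

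**Figure D1:**
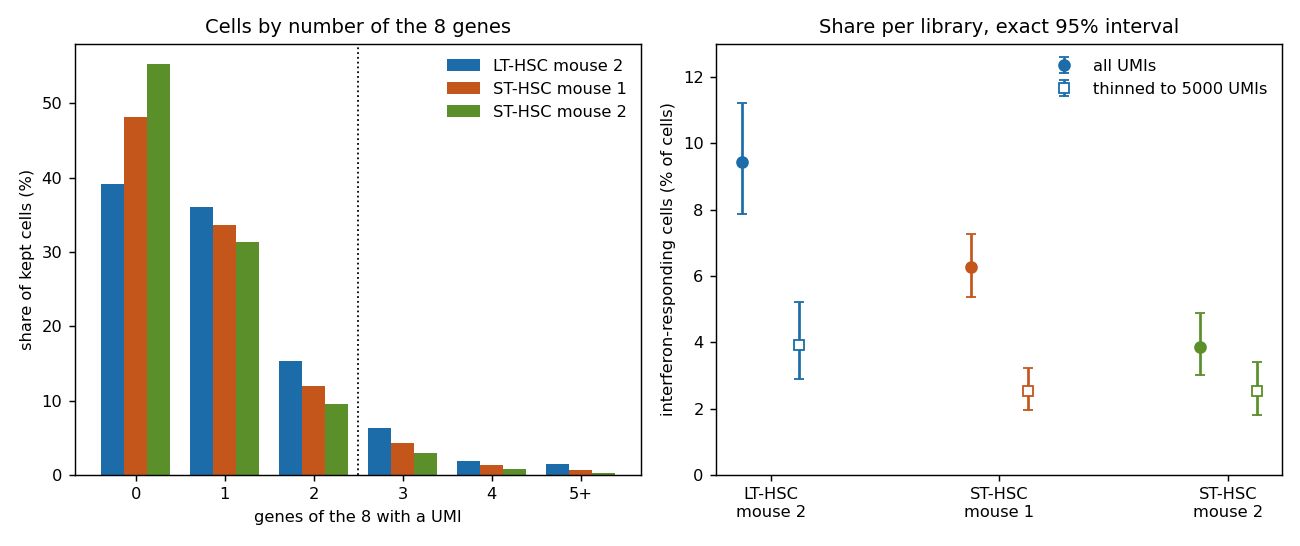
Left, share of kept cells (%) by the number of the 8 genes with a UMI in 3 libraries, where the dotted line marks the rule of 3. Right, share of interferon-responding cells (%) with its exact 95% interval, from all UMIs (filled circles) and after thinning to 5000 UMIs, without cells below that depth (open squares): the filled circles run from 9.45% to 3.87%, and the thinned values lie between 3.93% and 2.52%.

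The 8 genes lie on 4 chromosomes of the mm10 build. Ifit1 (chr19:34640871-34650009), Ifit3 (chr19:34583531-34588731) and Ifit3b (chr19:34607970-34613401) are neighbours on the plus strand and encode proteins that bind foreign RNA. Gbp4 (chr5:105115767-105139586) and Gbp6 (chr5:105270702-105293698) are neighbours on the minus strand and encode guanylate-binding proteins. Cxcl10, a chemokine that draws T cells, lies on the same chromosome (chr5:92346638-92348889). Isg15 (chr4:156199424-156200818) encodes a ubiquitin-like protein, and Iigp1 (chr18:60376027-60392634) an immunity-related GTPase. Ifit3 and Ifit3b are near-identical copies, so their split of reads is uncertain.

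Among the 348 interferon-responding cells the commonest combination was Ifit1, Isg15 and Iigp1 with none of the other 5 genes, in 118 cells (33.9%). Ifit1, Ifit3, Isg15 and Iigp1 followed in 26 cells, then Isg15, Gbp4 and Iigp1 in 18, Isg15, Gbp6 and Iigp1 in 17, and Gbp4, Gbp6 and Iigp1 in 16. The 3 genes of the commonest combination were also those seen most often among all kept cells of the 3 deep libraries. Iigp1 was seen in 473, 732 and 389 kept cells, Isg15 in 285, 633 and 381, and Ifit1 in 206, 372 and 168. Each of the other 5 genes was seen in at most 94, 135 and 58. Whether the combination was commoner than these counts alone would give was not tested. Only 15 cells held 6 or more of the 8 genes. At the threshold of the rule, with exactly 3 of the 8 genes, lay 76 of the 115 responding cells of LT-HSC mouse 2, 113 of the 165 of ST-HSC mouse 1 and 49 of the 66 of ST-HSC mouse 2.

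Each gene was also read in cells chosen without it, that is, in cells with 3 or more of the other 7 genes against depth-matched cells with none of the other 7. For Ifit3 in LT-HSC mouse 2 that pool ran out, and all 482 such cells were used. Ifit1 had 158, 221 and 208 CPM (UMI counts scaled to a common total for each group of cells) in the cells with 3 or more, against 14.0, 8.85 and 10.3 CPM in the cells with none. Isg15 had 154, 321 and 461 CPM, against 16.3, 24.02 and 34.5 CPM. Iigp1 had 583, 389 and 343 CPM, against 61.1, 36.2 and 32.2 CPM. All 3 genes were higher in every library, by 3.25 to 4.64 on the log2 scale. Ifit3 was higher by 4.57, 5.29 and 5.20, Gbp4 by 2.89, 3.63 and 4.61, and Gbp6 by 2.70, 2.95 and 1.71. These remained descriptions, since the other genes of one response chose the cells.

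Cxcl10 was carried by few cells. In ST-HSC mouse 1 it had 500 UMIs in 45 kept cells, of which 3 cells held 376 (75.2%) and 1 cell held 165. In ST-HSC mouse 2 it had 74 UMIs in 17 cells, with 42 in 1 cell, and in LT-HSC mouse 2 it had 7 UMIs in 7 cells. Its level in any sum of cells was therefore that of a handful of cells. In barcodes outside the cell filter the 8 genes together had 146, 119 and 294 CPM, against 192, 163 and 147 CPM in kept cells of the same libraries. Cxcl10 alone made up 201 of the 294 CPM in ST-HSC mouse 2, which came from 35 UMIs, and 45.7 of the 119 CPM in ST-HSC mouse 1. The part of free RNA in single UMIs of these genes was not tested.

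Summed levels rose step by step across the threshold of the rule. The summed level of 82 other interferon effector genes was 6519 ± 561 CPM in cells with 0 of the 8 genes, 7117 ± 674 with 1 and 8296 ± 696 with 2 (SD, n = 3 libraries). Just inside the rule it was 9899 ± 1045 CPM with 3 genes and 12152 ± 1753 with 4, and it was 16598 ± 3067 with 5 or more (n = 2). The 18 GTPase genes went through the same steps, with 376 ± 35.5, 470 ± 33.8 and 662 ± 15.4 CPM outside the rule. Inside it they had 1036 ± 109, 1427 ± 349 and 3180 ± 837 CPM. The sums of cells with 2 of the 8 genes thus lay between those of reference and responding cells in both lists. Sums do not show whether single cells lay between or were a mixture, which was not tested.

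**Figure D2:**
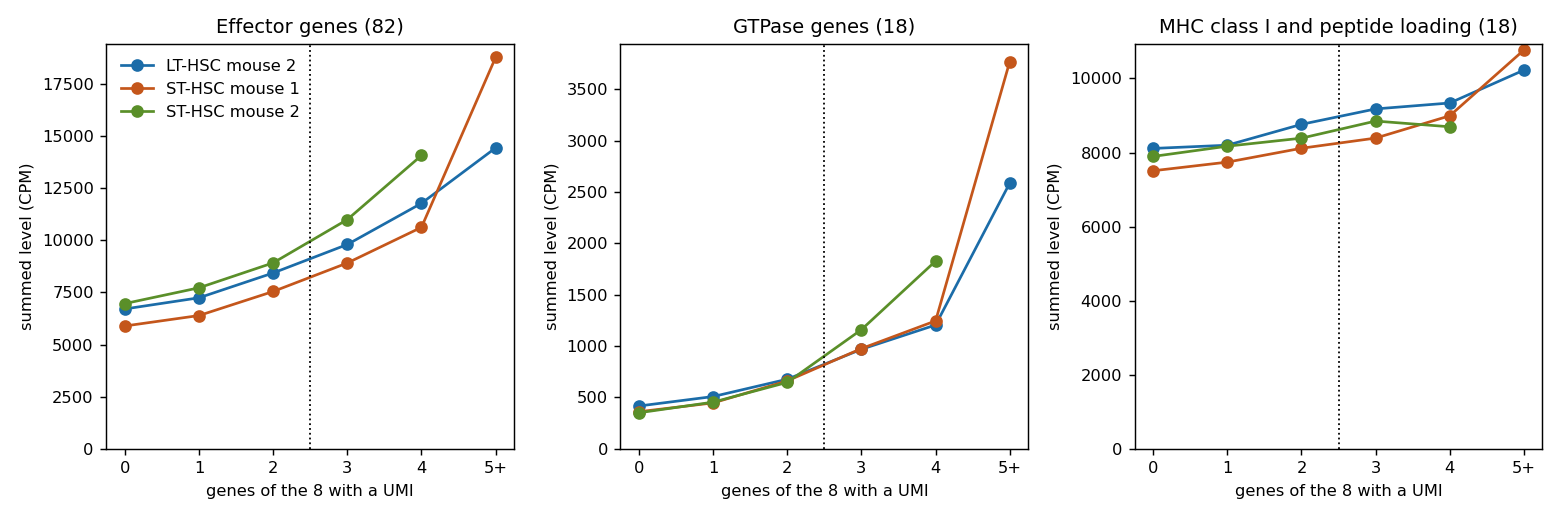
Summed level (CPM, linear axis from 0) of effector genes, GTPase genes and genes of MHC class I and peptide loading, none of them among the 8, by the number of the 8 genes with a UMI. Each line is 1 library, grades with under 10 cells are not drawn, and the dotted line marks the rule: effector genes stood at 6519 CPM on average with 0 genes and at 9899 CPM with 3.

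Outside the 8 genes, 197 of 10723 genes tested were higher in interferon-responding cells (1.84%) and 81 were lower (0.755%), by edgeR's quasi-likelihood test on sums per library with the library as a block and a Benjamini-Hochberg adjusted p under 0.05. Of the 197 higher genes, 115 were in lists of interferon or antigen presentation genes, and 90 were above 1 on the log2 scale. The groups did not overlap for 141 of the higher genes, where 5.03% of all genes tested lay so, and for 40 of the lower genes, where 5.11% did. Without the library block the test called 71 genes higher and 2 lower, and DESeq2 with the block called 107 and 14. All 197 higher genes were also called in sums per mouse and without 17 cells that carry neutrophil genes, described below. Neither setting was a strict check, since sums per mouse regroup the same counts and 0 of the 17 cells were interferon-responding.

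Antiviral effectors were the longest list. Of 79 tested effector genes outside the rule, 68 were higher and 0 lower, with a median log2 fold change of 1.08, against a median of -8.27e-05 over all genes tested. Mx1, a GTPase that blocks virus replication, had 9.38, 20.04 and 38.3 CPM in interferon-responding cells, against 0.818, 0.659 and 1.07 CPM in reference cells, the largest increase among the genes of the naming rule (log2 fold change 4.60, SE 0.39, adjusted p = 3.43e-11 by edgeR). Mx1 was seen in 44 responding cells (12.7%) and in 13 reference cells (0.797%). Rsad2, the antiviral enzyme viperin, had 92.2, 87.0 and 55.7 CPM in interferon-responding cells, against 12.5, 10.7 and 10.0 CPM in reference cells. The groups did not overlap for either gene, and both genes passed the test in all 17 other settings.

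Rtp4, an interferon-induced inhibitor of flavivirus replication, had 195, 250 and 346 CPM in interferon-responding cells, against 30.5, 37.8 and 56.2 CPM in reference cells (log2 fold change 2.69, SE 0.08, adjusted p = 6.80e-24 by edgeR). Ifi44 had 110, 134 and 146 CPM, against 19.2, 19.3 and 20.8 CPM. Ifitm3, which keeps viruses from fusing with endosomes, had 2086, 1390.4 and 2079.7 CPM in interferon-responding cells, against 1259, 837 and 1185 CPM in reference cells, where it was already high. In these 3 genes the groups did not overlap. Cmpk2, Xaf1, Bst2 and Ifi203 rose as well, by 2.21, 1.93, 0.90 and 0.81 on the log2 scale. Xaf1 was named after its values were seen.

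The sensors of foreign nucleic acid rose together: 17 of 21 tested genes were higher and 0 lower, with a median of 1.32. The lists share genes, so their counts are not separate results. Oasl1, Zbp1, Oasl2, Oas3, Dhx58, Eif2ak2, Oas1a, Ddx58 and Ifih1 are also counted among the effector genes. So are Stat2, Irf7, Irf9 and Usp18 of the lists further below. Oasl1, a member of the oligoadenylate synthetase family, had 26.6, 25.3 and 40.03 CPM in interferon-responding cells, against 1.23, 1.98 and 0.717 CPM in reference cells (log2 fold change 4.18, SE 0.31, adjusted p = 1.19e-12 by edgeR). Zbp1, a sensor of Z-form nucleic acid, had 46.9, 64.9 and 80.1 CPM, against 9.40, 10.3 and 11.1 CPM. Oasl2 rose by 2.27. Of genes named after their values were seen, Oas3 rose by 2.07, Dhx58 by 1.65, the RNA-activated kinase Eif2ak2 by 1.39, Oas1a by 1.32, and the RNA helicases Ddx58 (RIG-I) and Ifih1 (MDA5) by 1.20 and 1.08. Ifi206, of the DNA-sensing Ifi200 family, had 4.69, 9.49 and 38.3 CPM in responding cells, against 0, 0.220 and 2.51 CPM in reference cells; it too was picked after its values were seen.

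All 16 tested guanylate-binding and immunity-related GTPases outside the rule were higher, with a median of 1.90. These proteins attack the membranes around intracellular pathogens. Igtp (Irgm3) had 143, 125 and 188 CPM in interferon-responding cells, against 27.8, 20.9 and 23.3 CPM in reference cells (log2 fold change 2.60, SE 0.11, adjusted p = 2.21e-19 by edgeR). Irgm1 had 141, 146 and 188 CPM, against 50.3, 44.0 and 47.7 CPM, and Gbp7 had 187, 180 and 183 CPM, against 76.5, 58.7 and 54.5 CPM. In each of these genes the lowest responding sum exceeded the highest reference sum. Gbp9, Tgtp1, Tgtp2, Gm4951, Gm4841 and F830016B08Rik rose by 2.21 to 3.28, but they have close copies among which reads could have been split.

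**Figure D3:**
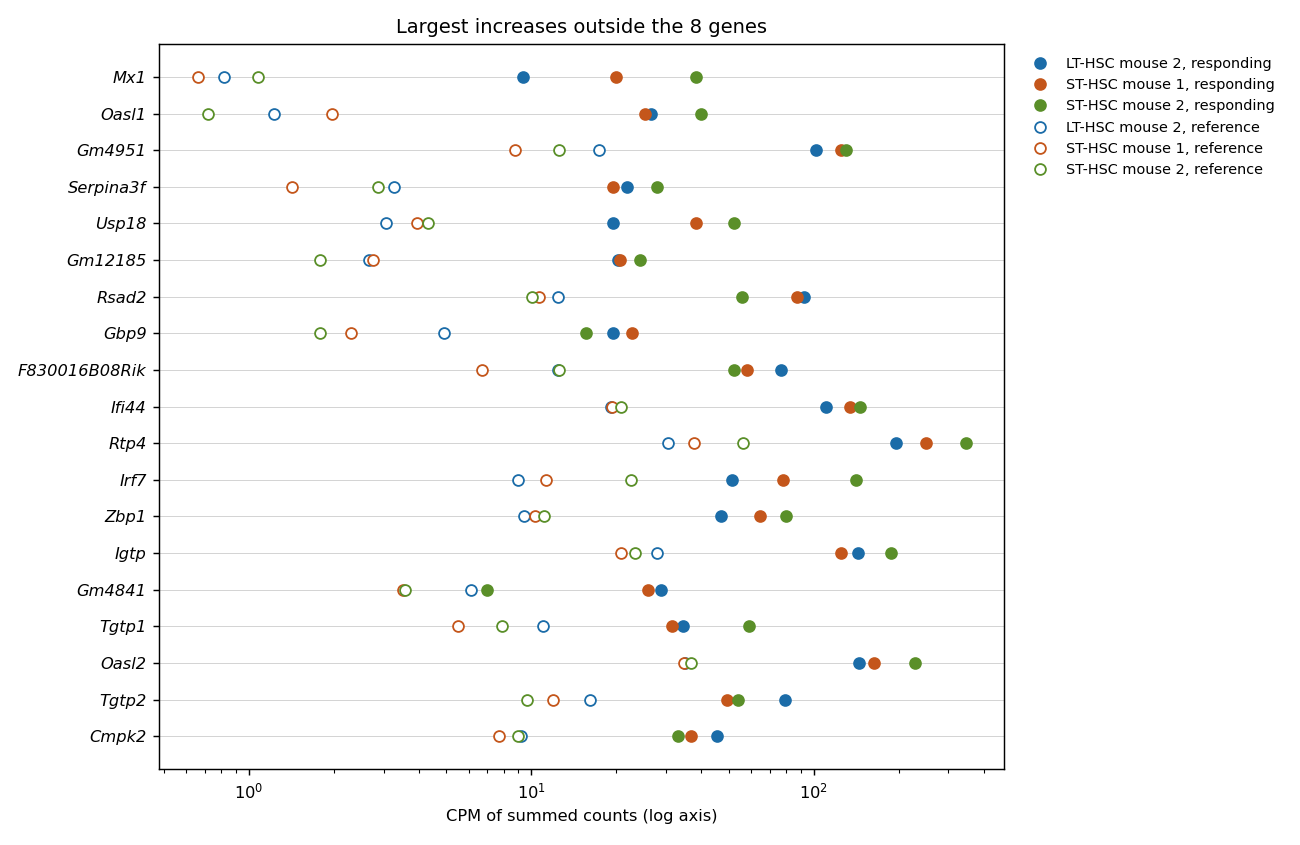
Level (CPM of summed counts, log axis) of 19 of the 20 genes with the largest increase among called genes with a mean of 10 CPM or more, in interferon-responding cells (filled) and reference cells (open) of 3 libraries. Reference cells were depth-matched in the ST-HSC libraries only. In each of the 19 rows the filled points of the 3 libraries lie to the right of all open ones, with Mx1 at 9.38 to 38.3 CPM in responding cells and 0.659 to 1.07 CPM in reference cells.

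In the signalling chain, Stat2 and 5 of 11 interferon regulatory factors were higher, and the receptor genes did not pass the test. No interferon gene was tested, since the 11 listed ligands had 1 UMI in interferon-responding cells and 6 in reference cells. Stat2, which carries the type I signal to the nucleus together with Irf9, had 59.4, 54.8 and 64.4 CPM in interferon-responding cells, against 19.2, 16.9 and 16.5 CPM in reference cells (log2 fold change 1.72, SE 0.14, adjusted p = 1.80e-11 by edgeR). Its groups did not overlap. The receptor genes, named after their values were seen, had log2 fold changes of 0.04 for Ifnar1 (SE 0.15), 0.09 for Ifnar2 (SE 0.10), 0.05 for Ifngr1 (SE 0.09) and -0.07 for Ifngr2 (SE 0.16). None passed the test, and their groups overlapped.

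Of 11 interferon regulatory factors tested, 5 were higher: Irf7, Irf9, Irf1, Nlrc5 and Ciita. Irf7, which amplifies type I interferon output, had 51.6, 78.0 and 141 CPM in interferon-responding cells, against 8.996, 11.3 and 22.6 CPM in reference cells (log2 fold change 2.68, SE 0.14, adjusted p = 4.41e-17 by edgeR). Irf9, the DNA-binding part of the type I complex, had 127, 140 and 136 CPM, against 51.7, 50.1 and 44.1 CPM. Irf1, a factor induced strongly by interferon gamma, had 136, 159 and 134 CPM, against 76.1, 72.4 and 92.8 CPM. Nlrc5 and Ciita, the coactivators of MHC class I and class II genes, rose by 1.06 and 1.93; Ciita was named after its values were seen.

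Of 14 feedback inhibitors, 3 rose. Usp18, which removes Isg15 and silences the type I receptor, had 19.5, 38.5 and 52.2 CPM in interferon-responding cells, against 3.07, 3.95 and 4.299 CPM in reference cells (log2 fold change 3.20, SE 0.24, adjusted p = 1.55e-12 by edgeR). Socs1, an inhibitor of Jak kinases, had 45.3, 33.2 and 36.5 CPM, against 22.3, 11.9 and 15.4 CPM. Socs2 rose by 0.79, and its groups overlapped because LT-HSC mouse 2 was far above the ST-HSC libraries in both groups. Socs3, named after its values were seen, had a log2 fold change of -0.50 (SE 0.44) and did not pass. Of 11 chemokines, cytokines and surface ligands, the death ligand Tnfsf10 and the interleukin-18 decoy Il18bp were called higher, by 0.76 and 1.12. Il18bp had 19.5, 11.1 and 5.22 CPM in interferon-responding cells, against 6.95, 5.27 and 5.37 CPM in reference cells, so ST-HSC mouse 2 did not share the increase, and it was called in 10 of 17 other settings.

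Antigen presentation rose by smaller steps. All 5 immunoproteasome genes tested were higher (median 0.30), with 0 of 14 constitutive proteasome core genes called (median 0.0017). Psmb9, a catalytic immunoproteasome subunit, had 301, 328 and 374 CPM in interferon-responding cells, against 207, 242 and 259 CPM in reference cells. Of 18 genes of MHC class I and peptide loading, 9 were higher (median 0.30). Tap1, a subunit of the peptide transporter, had 132, 154 and 153 CPM, against 75.03, 80.3 and 78.8 CPM, and B2m, the class I light chain, rose by 0.28. MHC class I heavy chains are near-identical, so values such as that of H2-K1 (log2 fold change 0.22) are uncertain.

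Of 7 MHC class II genes, 5 were higher (median 0.59). Cd74, the invariant chain, had 328, 268 and 310 CPM in interferon-responding cells, against 154, 138 and 125 CPM in reference cells (log2 fold change 1.07, SE 0.07, adjusted p = 6.00e-15 by edgeR). H2-Aa had 121, 166 and 122 CPM, against 78.1, 73.3 and 56.2 CPM. Class II genes also mark dendritic cells. The 6 dendritic and class II markers summed to 635, 777 and 790 CPM in interferon-responding cells, against 363, 479 and 426 CPM in reference cells, and their part in the result was not tested. Markers of T and NK cells stood at 29.1, 89.0 and 113 CPM in interferon-responding cells and 37.8, 112 and 132 CPM in reference cells.

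**Figure D4:**
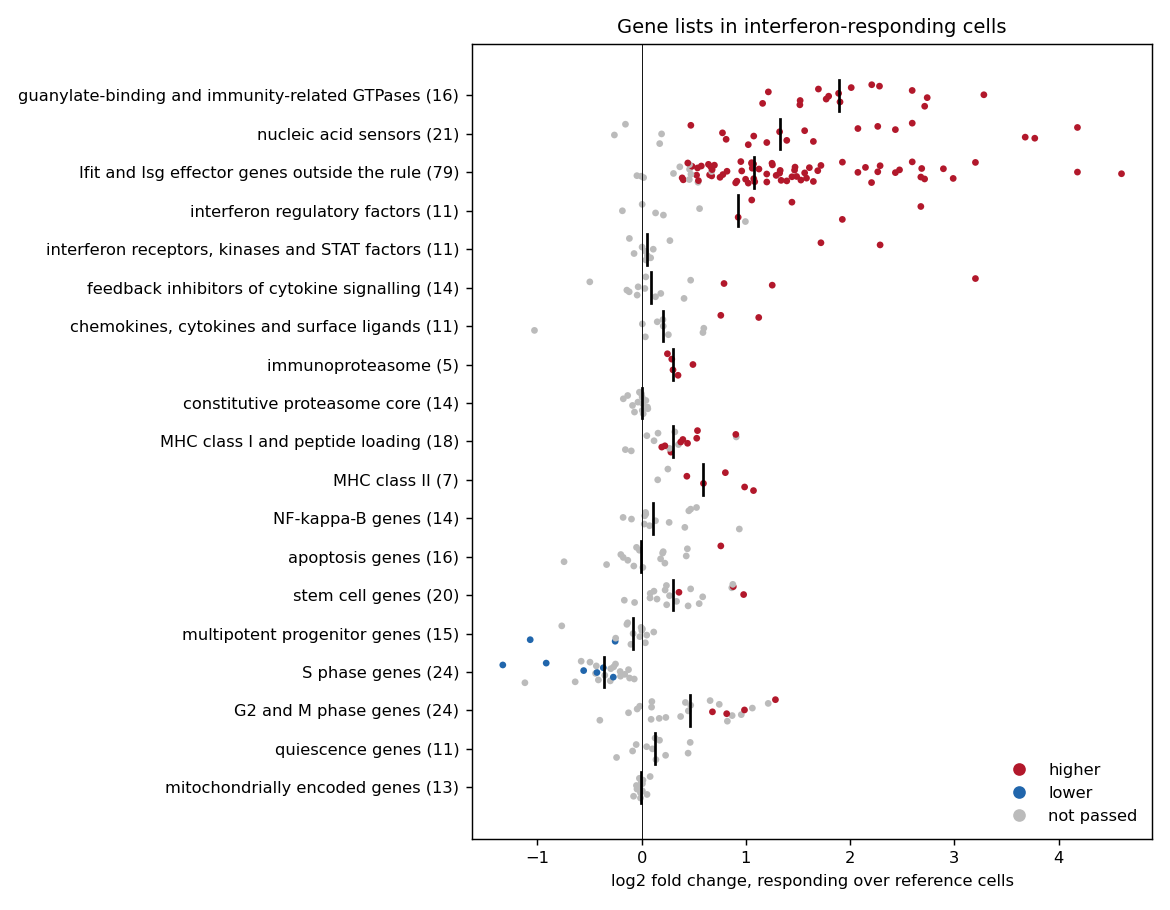
Log2 fold change of interferon-responding over reference cells for each tested gene of 19 lists (1 point a gene; red, called higher; blue, called lower; grey, not called), with the list's median as a black bar and the number tested in brackets. GTPases have the highest median, 1.90, and the constitutive proteasome core and the mitochondrially encoded genes lie around 0.

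In promoters, the ISRE core was found in 55 of the 159 higher genes with a RefSeq promoter (34.6%), in 1 of 63 lower genes (1.59%) and in 3.92% of the genes tested. It was found in 11 of 12 GTPases (91.7%), 27 of 67 effector genes (40.3%) and 0 of 5 MHC class II genes. The GAS letters TTCNNNGAA, which read the same on both strands, were found in 18.2% of higher genes, in 11.1% of lower genes and in 8.32% of the genes tested. Among GTPases, 7 of the 12 genes with a promoter held GAS letters. The motifs are short, and these shares are descriptions of 300-base windows.

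Stem cell surface genes moved unevenly. Ly6a, which encodes Sca1 and was used in the sort of both gates, had 432, 510 and 614 CPM in interferon-responding cells, against 194, 204 and 232 CPM in reference cells (log2 fold change 1.29, SE 0.05, adjusted p = 2.09e-19 by edgeR). It was seen in 323 responding cells (93.4%) and in 1230 reference cells (75.4%). Ly6a is also among the listed effector genes outside the rule, so the Sca1 sort used a gene of the response. The part of that sort in the shares was not tested. Kit, also used in the sort, had 220, 214 and 230 CPM, against 252, 224 and 243 CPM (log2 fold change -0.12, SE 0.06), and did not pass. Slamf1, which encodes the CD150 of the LT-HSC gate, had 31.3, 0.527 and 5.22 CPM, against 17.99, 0.439 and 1.07 CPM, and did not pass either (adjusted p = 0.213 by edgeR). Cd48 had 1.56, 6.33 and 15.7 CPM, against 1.02, 15.5 and 31.5 CPM; it was called lower, but not in LT-HSC mouse 2, and in 6 of 17 other settings.

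Of 20 stem cell genes, 3 were higher and 0 lower (median 0.30). Mllt3, a regulator of stem cell maintenance, had 315, 102 and 124 CPM in interferon-responding cells, against 248, 87.0 and 72.4 CPM in reference cells. The long non-coding RNA Meg3 had 225, 17.4 and 26.1 CPM, against 104, 14.1 and 11.5 CPM. Sult1a1 had 93.0, 2.11 and 3.48 CPM, against 44.4, 3.40 and 3.58 CPM, so its call came from LT-HSC mouse 2 and the ST-HSC libraries went the other way. Of 15 multipotent progenitor genes, Cd34 and Cd48 were lower and 0 higher. Without the neutrophil-marked cells described below, 1 of the 15 was lower. Cd34 had 109, 340 and 329 CPM in interferon-responding cells, against 128, 411 and 385 CPM in reference cells. Its log2 fold change was -0.25 (SE 0.06), its groups overlapped, and it was called in 12 of 17 other settings. Flt3, named after its values were seen, had a log2 fold change of 0.12 (SE 0.09) and did not pass.

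Genes of S phase were lower where they were called. Of 24 tested, 6 were lower and 0 higher, with a median of -0.36. Rrm2, which makes the building blocks of DNA, had 7.82, 8.44 and 12.2 CPM in interferon-responding cells, against 19.6, 19.5 and 36.5 CPM in reference cells (log2 fold change -1.33, SE 0.23, adjusted p = 1.21e-04 by edgeR). Tyms had 15.6, 34.3 and 27.8 CPM, against 50.9, 48.6 and 56.2 CPM, and Mcm3, of the replicative helicase, had 72.7, 84.4 and 73.1 CPM, against 105, 109 and 96.4 CPM. Cdk6, a kinase that lets stem cells leave rest, was named after its values were seen and fell by 0.45, with 122, 179 and 183 CPM in interferon-responding cells and 184, 228 and 252 CPM in reference cells. In these 4 genes the groups did not overlap, though 1 responding cell held 30.3% of the Rrm2 UMIs. With a rule of 2 or more of the 8 genes, Rrm2 had a log2 fold change of 0.19 and was not called. Dut, Pcna and Tk1 changed sign under that rule as well.

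Genes of G2 and M phase differed between libraries. Of 24 tested, 4 were higher and 0 lower (median 0.46). Ube2c, which drives exit from mitosis, had 86.8, 32.2 and 1.74 CPM in interferon-responding cells, against 15.1, 21.2 and 15.05 CPM in reference cells, so it was called (log2 fold change 1.28, SE 0.26, adjusted p = 1.48e-03 by edgeR) although ST-HSC mouse 2 went the other way. It was seen in 16 responding cells, and 1 of them held 35.8% of its UMIs. Cenpf had 66.5, 38.5 and 5.22 CPM, against 18.8, 24.6 and 15.4 CPM, in 28 responding cells. Cenpa, a histone of centromeres seen in 82 responding cells, had 93.8, 74.3 and 22.6 CPM, against 38.2, 49.96 and 43.0 CPM, again with ST-HSC mouse 2 the other way. Cdc20, an activator of the complex that ends metaphase, was seen in 31 responding cells and had 36.7, 21.6 and 15.7 CPM, against 13.7, 15.4 and 13.6 CPM. For Cdc20 the groups did not overlap, though it was called in 9 of 17 other settings. Of 11 quiescence genes, 0 passed. In 14 NF-kappa-B genes, 6 p53 target genes and 13 mitochondrially encoded genes, 0 passed either.

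The largest decreases were of neutrophil genes. All 8 neutrophil markers were lower, with sums of 9.19, 22.8 and 39.9 CPM in interferon-responding cells against 421, 1501 and 5774 CPM in reference cells. S100a8, which encodes a calcium-binding alarmin of neutrophils, had 3.13, 5.80 and 13.9 CPM, against 195, 613 and 2528 CPM. Among all kept cells, 17 held at least 0.2% of their UMIs in the 8 markers; 0 of these were interferon-responding and 10 were reference cells, and they held 97.4% of the marker UMIs. Without these cells 57 of 10673 genes were lower (0.534%) and 218 higher. S100a9 then had a log2 fold change of 1.21 and S100a8 of 0.31. Of the 8 neutrophil markers, 3 were still tested there, with 1 called higher and 0 lower. Of the 81 lower genes, 33 were no longer called, 21 of them because they were no longer tested.

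With the neutrophil-marked cells left out, 7 S phase genes were lower and 9 G2 and M phase genes were higher. Of the myeloid priming genes, 6 of 11 tested were lower with those cells and 0 of 7 without them. The marker sums that follow are of the main groups, in which the neutrophil-marked cells were kept. Plasmacytoid dendritic markers summed to 413, 495 and 524 CPM in interferon-responding cells, against 303, 349 and 316 CPM in reference cells. Among them Bst2, itself an interferon-stimulated gene, had 276, 324 and 367 CPM, against 162, 171 and 176 CPM. Tcf4, another of these markers, had a log2 fold change of 0.09 (SE 0.07) and did not pass. Macrophage and monocyte markers summed to 286, 284 and 250.1 CPM, against 325, 409 and 791 CPM. Of these, Lyz2 alone had 284, 275 and 231 CPM, against 313, 358 and 689 CPM. Of the 3 macrophage and monocyte markers tested, 2 were lower with the neutrophil-marked cells and 2 without them. Erythroid markers summed to 2.30, 4.77 and 17.4 CPM, against 9.76, 9.32 and 22.3 CPM. The part of such cells in the results was not tested. Markers of endothelium summed to 74.3, 63.0 and 69.5 CPM in interferon-responding cells, against 66.9, 75.3 and 69.2 CPM in reference cells. Stromal markers had at most 3.83 CPM in interferon-responding cells and 3.25 CPM in reference cells.

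Interferon-responding cells were not all alike. By a split made after their values were seen, 189 of the 346 cells in the tested libraries held a UMI of an Ifit gene of the rule and none of Gbp4 or Gbp6, 66 held Gbp4 or Gbp6 and no Ifit gene, 87 held both kinds, and 4 neither. The split was not tested. Mx1 averaged 25.05 ± 12.2 CPM in the cells with Ifit genes only and 3.44 ± 5.95 CPM in those with Gbp genes only (SD, n = 3 libraries), and Oasl1 averaged 44.4 ± 13.7 and 5.03 ± 5.98 CPM. Irf7 averaged 94.8 ± 47.6 CPM with Ifit genes only and 28.9 ± 20.6 CPM with Gbp genes only. These antiviral genes were higher in the Ifit cells in all 3 libraries.

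Other genes ran the opposite way between the cells with Ifit genes only and those with Gbp genes only. Irf1 averaged 90.2 ± 5.78 CPM with Ifit genes only and 203 ± 56.9 CPM with Gbp genes only, and Socs1 averaged 21.5 ± 12.4 and 66.0 ± 32.1 CPM. Cd74 averaged 181 ± 26.4 CPM with Ifit genes only and 521 ± 129 CPM with Gbp genes only, and H2-Aa averaged 86.4 ± 19.8 and 259 ± 81.5 CPM. In each of these 4 genes all 3 libraries had the higher value in the Gbp cells. The effector list as a whole was level, at 10837 ± 1318 and 10471 ± 1151 CPM. The 87 cells with both kinds averaged 44.5 ± 38.4 CPM for Mx1, 30.1 ± 16.7 for Oasl1 and 159 ± 130 for Irf7. They averaged 217 ± 57.9 CPM for Irf1, 62.0 ± 21.4 for Socs1, 465 ± 129 for Cd74 and 181 ± 44.4 for H2-Aa. Both sets of genes were thus seen in the sums of these 87 cells. Counts were small, with 1 Mx1 UMI over all 66 Gbp cells. Across single responding cells the summed effector and GTPase levels had Pearson's r of 0.55 (n = 115), 0.61 (n = 165) and 0.53 (n = 66), where each pair of values shares a cell and its depth.

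**Figure D5:**
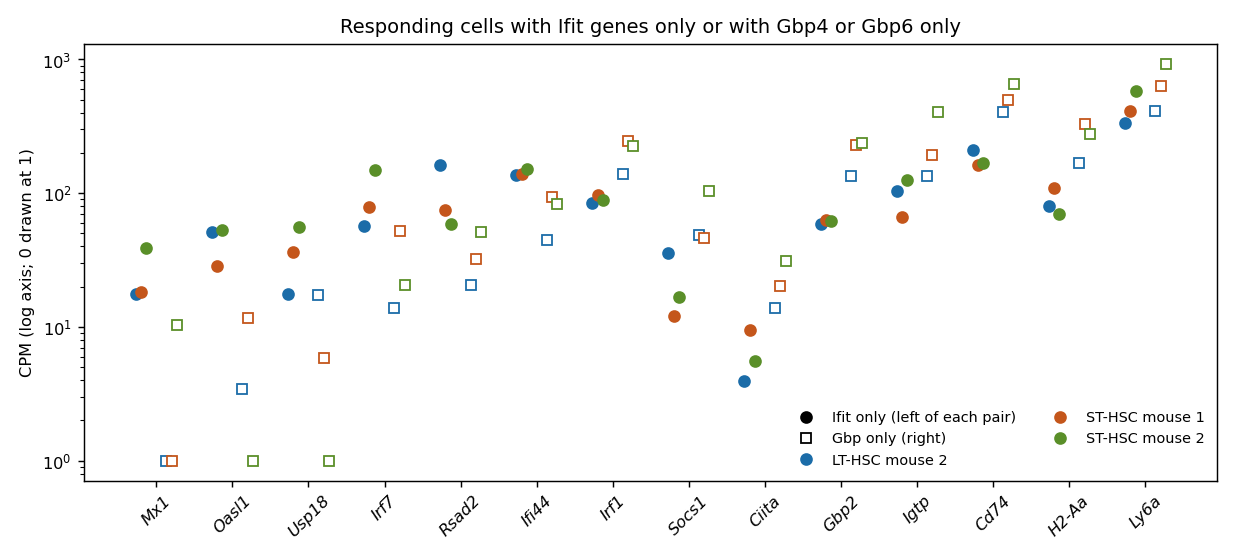
Level (CPM, log axis, 0 drawn at 1) of 14 genes in interferon-responding cells with Ifit genes of the rule but neither Gbp4 nor Gbp6 (filled circles, left) and in those with Gbp4 or Gbp6 but no Ifit gene (open squares, right), 1 point a library. Mx1, Oasl1 and Irf7 lie higher in the Ifit cells, whereas Irf1, Gbp2, Cd74 and H2-Aa lie higher in the Gbp cells. The 87 cells with both kinds are not drawn.

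The response was compared between LT-HSC and ST-HSC with a term for the difference, which rested on 1 LT-HSC and 2 ST-HSC libraries, so that the gate and the single LT-HSC library cannot be told apart. Of 11226 genes tested, 10 passed (0.0891%). Of these 10, 3 were among the 197 higher genes: Ube2c, Cenpf and Serpina3g. Serpina3g, a protease inhibitor named after its values were seen, had 302 CPM in interferon-responding and 159 CPM in reference LT-HSC, while ST-HSC had 209 and 237 CPM in responding and 71.0 and 79.9 CPM in reference cells. For Irf7 the response in LT-HSC minus that in ST-HSC was -0.21 (SE 0.33), for Igtp -0.36 (SE 0.23), for Usp18 -0.71 (SE 0.58) and for Ly6a -0.20 (SE 0.12) on the log2 scale. It was -1.14 for Gm4951 (SE 0.28, adjusted p = 0.0506 by edgeR), -1.48 for Mx1 (SE 1.22), -1.19 for Ciita (SE 0.73) and 0.31 for Oasl1 (SE 0.77). None of these 8 passed the adjusted threshold, which does not show that the gates respond alike.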

How the data were processed

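RNA of single sorted cells was counted with 10x Genomics 3' libraries. Per the submitters' processing notes Cell Ranger 3.1.0 was used, and the matrix headers name software version 3.0.2; the deposited matrices hold raw UMI counts per gene and barcode on mm10, with 0 other columns. The members and gene lists were chosen with earlier results of these data known. The 8 rule genes were left out of totals, matching and tests. Each responding cell was matched to up to 5 cells of its library with none of the 8 genes, nearest in log UMI total; in LT-HSC mouse 2 the pool ran out and all 477 were used. Counts were summed per library and group and tested with edgeR 4.0.16 (R 4.3.3, TMM, filterByExpr, quasi-likelihood F-test, library block, because both sums come from 1 cell suspension), with Benjamini-Hochberg adjustment over all genes tested. Standard errors were derived from each fold change and its F statistic. The fit was tested on simulated data. DESeq2 1.42.0 was an alternative. CPM of tested genes uses TMM-scaled totals, and CPM of the 8 genes uses totals of all UMIs. List sums and the split into Ifit and Gbp cells use plain totals outside the 8 genes.

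Median totals of responding and reference cells were 10584 and 10119 UMIs (LT-HSC mouse 2), 10007 and 10025 (ST-HSC mouse 1), and 7883 and 7873 (ST-HSC mouse 2). No doublet caller was run; an alternative left out cells above 3 times their library's median. Genes were named by rule: the 8 genes, the 4 sorted surface genes, the 20 largest changes each way that kept their direction in every library and averaged at least 10 CPM, and 4 per list by smallest p with a mean of 5 CPM or more. Gene positions are from GENCODE vM21, promoters from RefSeq. Alternatives changed the block, scaling, test, filters, matching, reference, rule, replicate unit and libraries. The values of 1 gene are not reported here.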

Additional observations from a re-analysis of the deposited data

Results flagged for a closer look

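The response (interferon-responding over reference cells, log2) of the single LT-HSC library tested differed from that of the 2 ST-HSC libraries for 10 genes by the tested difference, given here as LT-HSC minus ST-HSC; gate and library cannot be told apart. With 1 reference cell per responding cell only Ctla2a was still called. Their cause was not tested.

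Genes of mitosis formed a group of 3. Ube2c differed by 2.21, Ccnb2 by 2.34 and Cenpf by 1.40; they rested on 16, 14 and 28 responding cells, with 35.8%, 22.5% and 21.7% of their UMIs in 1 cell. Ccl5, a chemokine, differed by 4.87, with 13.3 CPM in responding and 0.409 CPM in reference cells of LT-HSC mouse 2, where 1 responding cell held all 17 of its UMIs. Pf4, the platelet factor, differed by -1.21, and Cd69, an early activation marker induced by interferon, by -1.95: it had 7.04 CPM in responding and 16.8 CPM in reference LT-HSC, while ST-HSC had 42.7 and 40.03 CPM in responding and 26.9 and 22.2 CPM in reference cells. Ctla2a, a cysteine protease inhibitor, differed by -0.51, with 520 CPM in responding and 744 CPM in reference LT-HSC. Serpina3g differed by -0.63, the non-coding Lncpint by 1.504, and Lyz2, a myeloid gene that the neutrophil-marked reference cells also carry, by 0.65.

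In LT-HSC mouse 1, where 39531 barcodes lay outside the cell filter, 2 of them held 3 or more of the 8 genes. The 8 genes together had 144 CPM outside the filter and 434 CPM in the 22 kept cells of that library.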

How the results depend on the processing

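The 197 genes higher in interferon-responding cells became 71 without the replicate block, 107 with DESeq2 and 120 with cells of exactly 3 of the 8 genes (added after seeing the data), and 160 to 180 without one library; the other settings gave 156 to 262. The block is the library that both sums share. The 81 lower genes were less stable: 2 without the replicate block, 14 with DESeq2, 163 with no filter on low counts, 50 with 1 reference cell each, 49 with a reference not depth matched, 50 with 4 or more of the 8 genes, 41 with exactly 3, and 149 in sums per mouse. They were 65 without LT-HSC mouse 2, 43 without ST-HSC mouse 1 and 37 without ST-HSC mouse 2. Genes differing between gates became 1 with 1 reference cell each. In LT-HSC mouse 2, ST-HSC mouse 1 and ST-HSC mouse 2, the share was 3.93%, 2.54% and 2.52% after thinning, 3.20%, 1.97% and 0.996% with 4 or more genes, and 24.7%, 18.2% and 13.4% with 2 or more. In LT-HSC mouse 1 it was 1.00% with 500 genes and 1000 UMIs. Among 174 named genes, 7 values changed sign: with 2 or more genes Dut (0.0048), Pcna (0.0090), Rrm2 (0.19), Tk1 (0.039) and Hbb-bs (4.21), and without neutrophil-marked cells S100a8 (0.31) and S100a9 (1.21). The cause was not tested. Depth limits rare genes: a cell of 7504 UMIs misses most molecules, so cells without the 8 genes are not shown to lack the response.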
